A study of Homo sapiens with 4 samples.

Results

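In the human embryonic stem cell line H1, 4613 of 87966 regions of open chromatin had a peak under each of 3 treatments (Activin A, Wnt3a and the 2 ligands combined) but none in control cells. They were found by merging overlapping or book-ended peaks of the 4 deposited peak lists and keeping the merged regions with a peak in all 3 treated lists and none in the control list. The regions were thus chosen by the presence and absence of peaks in these same lists, and their absence from control is a description with no test. The assay, ATAC-seq, uses a transposase that cuts and tags accessible DNA, and a peak is a stretch with more insertions than the peak caller expected by chance.

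The treated groups received 25 ng/ml of Activin A, 25 ng/ml of Wnt3a, or both ligands at 25 ng/ml each (the combined treatment), and the remaining group was the control, with 1 library per group and no replicates. The treated cells were harvested at 6 h, no time is given for the control, and all groups had been grown without feeder cells on Matrigel. Control cells stayed in a defined medium with N2, B27 and basic fibroblast growth factor, whereas treated cells were moved to a medium with B27 for which neither N2 nor the growth factor is listed. A response to a ligand, a response to the change of medium and a difference between single libraries cannot be told apart for regions present in every treated list.

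Activin A binds receptors of the TGF-beta family and acts through SMAD2 and SMAD3, which enter the nucleus and bind DNA with partner factors. Wnt3a stabilises beta-catenin, which joins TCF and LEF factors at their sites. In human embryonic stem cells both pathways take part in the exit towards mesendoderm, the precursor of mesoderm and endoderm, while basic fibroblast growth factor in the growth medium helps to keep the cells undifferentiated. Open regions are usually gene starts, many of them in CpG islands, or more distant enhancers and insulators. Positions are given on hg19, the build of the deposited files; no gene annotation or sequence of that build was used, so the regions are named by their cytogenetic band, the labelled cell type was not checked against marker genes, and no sequence is shown.

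The regions made up 23.3% of the Wnt3a list (95% interval 22.7 to 23.9), 8.23% of the combined list (8.003 to 8.46) and 6.31% of the Activin A list (6.13 to 6.49), which held 19801, 56055 and 73116 regions. Intervals here and below are exact binomial intervals and cover counting error only. Of the 17629 regions present in all 3 treated lists, 4613 (26.2%, 25.5 to 26.8) lacked a control peak. Taking each treatment on its own, the share of regions lacking a control peak was 70.0% for Activin A, 33.1% for Wnt3a and 62.5% for the combined treatment. Those shares rest on the same control list, and nothing is read from them about the 4613 regions.

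Regions missing from exactly 1 list were counted for each of the 4 lists. Of the 20428 regions with a peak in the Activin A, combined and control lists, 7412 (36.3%, 35.6 to 36.9) lacked a Wnt3a peak. By the same count, 148 of 13164 regions (1.12%, 0.951 to 1.32) were missing from the combined list alone and 56 of 13072 (0.428%, 0.324 to 0.556) from the Activin A list alone. The Wnt3a and control lists were the shorter ones, with 21078 and 26223 peaks, against 58382 in the combined list and 75585 in the Activin A list. List length and the share missing therefore went together across the 4 lists, and the part of read depth in this was not tested, as read numbers were not among the data used here.

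Ranked within each list, the regions stood by their median above the middle of the Activin A and combined lists and below the middle of the Wnt3a list. Each peak carries the authors' score, whose values would fit a p-value as its negative base-10 logarithm times 10. It was used to rank peaks within their own list, where a region takes the percentile of its best peak; percentiles from lists of different length show no change between treatments. The median percentile of the 4613 regions was 70.5 by Activin A score (quartiles 56.0 and 80.8), 35.8 by Wnt3a score (18.7 and 54.3) and 62.4 by combined score (45.1 and 75.2). Regions of all 4 lists lay higher in each, at 90.3, 65.3 and 87.4. Regions found only after Activin A and both ligands lay lower, at 50.2 by Activin A score and 40.1 by combined score.

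By Activin A score, 1837 of the 4613 regions (39.8%, 38.4 to 41.3) had a peak among the highest 25% of scores, as had 1174 (25.4%, 24.2 to 26.7) by combined score. By Wnt3a score 253 (5.48%, 4.85 to 6.18) did, and 1595 (34.6%, 33.2 to 36.0) were among the lowest 25%. Scores ran from 50.2 to 887 after Activin A, with a median of 185. They ran from 52.2 to 357 after Wnt3a, with a median of 73.4, and from 50.05 to 726 after both ligands, with a median of 124.0. The regions thus reached down close to the lowest score of each list: 427 (9.26%, 8.44 to 10.1) scored under 60 after Wnt3a, 329 (7.13%, 6.41 to 7.91) after both ligands and 84 (1.82%, 1.45 to 2.25) after Activin A. In the whole lists, the lowest decile of scores ended near 60.9 for Wnt3a and near 59.5 for Activin A. For the combined list the second lowest decile ended near 60.5. The share under 60 was therefore close to that of the whole list for Wnt3a and below it for the other lists.

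**Figure D1:**
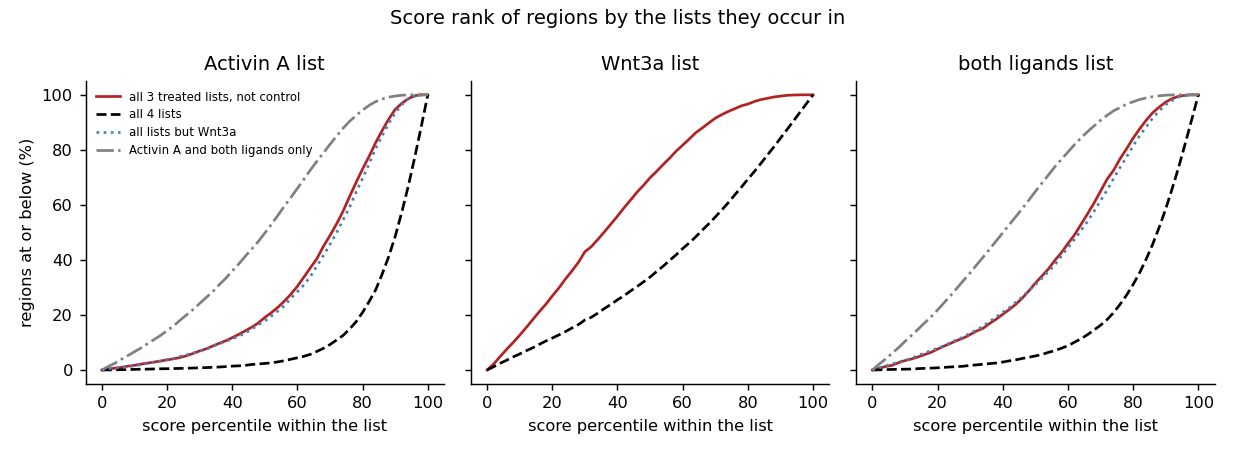
Cumulative share of regions (y axis, %) at or below each score percentile (x axis) of the Activin A, Wnt3a and combined lists. The solid line is the 4613 regions of all 3 treated lists without a control peak, and regions of all 4 lists (dashed) lie farther right in each panel. In the Activin A and combined panels, regions of Activin A and both ligands only (dash-dotted) lie farther left. The solid line runs there almost on that of regions missing only from the Wnt3a list (dotted). The dash-dotted and dotted sets have no Wnt3a peak and are not drawn in the Wnt3a panel.

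Absence from control was least frequent among the highest scores, whichever treated list was used to rank. Among regions of all 3 treated lists, 71.8% (62.4 to 80.0) of those in the lowest decile of Activin A scores and 3.53% (3.11 to 3.99) of those in the highest decile had no control peak. In the Activin A ranking the share was level over the 5 lowest deciles, between 71.8% and 77.8%, and dropped in each decile after that. By the combined list the shares in the lowest and highest deciles were 79.8% (73.5 to 85.2) and 2.21% (1.84 to 2.63). The Wnt3a ranking began lower, with 43.4% (40.7 to 46.1) in the lowest decile, and ended at 1.11% (0.704 to 1.66), or 23 of 2074 regions, in the highest. The share was near its highest value in the 3 lowest deciles of the Wnt3a list, at 43.4%, 46.7% and 46.4%, and was lower in every later decile than in the one before.

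**Figure D2:**
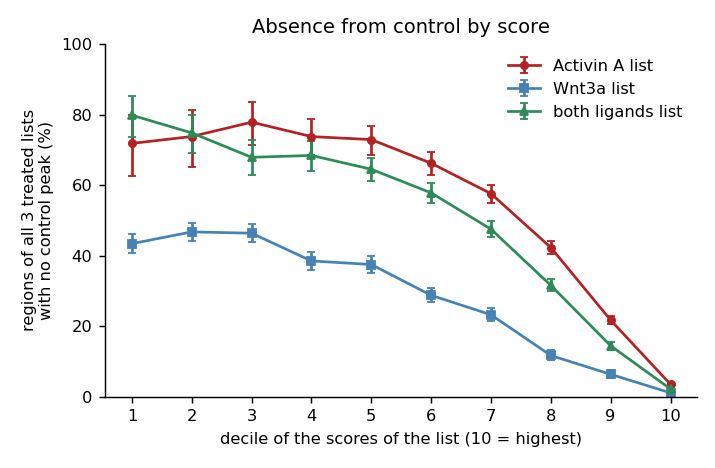
Share of regions of all 3 treated lists that had no control peak (y axis, %) by decile of the scores of each treated list (x axis, 10 the highest), with exact 95% intervals. All lines fall to under 4% in the highest decile, and the Wnt3a line starts at 43.4%.

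Ranking by the 3 lists together separated a small strong group from a large weak one. Of the 4797 regions in the highest 25% of every treated list, 149 (3.11%, 2.63 to 3.64) had no control peak. At the other end, 2398 of 3631 regions in the highest 25% of none of the lists (66.0%, 64.5 to 67.6) had none, and these made up 52.0% of the 4613. A further 952 regions (20.6%, 19.5 to 21.8) were in the highest 25% of the Activin A list alone and 692 (15.0%, 14.0 to 16.1) of the Activin A and combined lists. They were 39.5% (37.5 to 41.4) of the 2413 and 12.3% (11.4 to 13.1) of the 5642 regions of all 3 treated lists with those patterns. In the highest 25% of the Wnt3a list alone were 45 (0.976%, 0.712 to 1.30). That pattern was rare, with 105 regions of all 3 treated lists, of which these 45 were 42.9% (33.2 to 52.9).

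For regions in the highest 25% of every list with a required peak, the reverse case was counted too. Of 5850 regions in the highest 25% of the Activin A, combined and control lists, 392 (6.70%, 6.07 to 7.37) had no Wnt3a peak. This share was higher than the 3.11% without a control peak, but the shares rest on the highest 25% of different lists. The Wnt3a list was also shorter than the control list (21078 against 26223 peaks). With 1 library each, neither share has a replicate check.

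The scores of the 4613 regions followed each other less closely than those of regions open everywhere. Across the 4613 regions, Spearman's rho between scores was 0.54 for Activin A and both ligands, 0.25 for Activin A and Wnt3a, and 0.24 for both ligands and Wnt3a. Across the 13016 regions of all 4 lists the values were 0.81, 0.63 and 0.62. These are descriptions over regions of the same libraries, and the 4613 regions spanned a narrower range of scores. The Activin A list gave the highest percentile for 2898 of the regions (62.8%, 61.4 to 64.2), the combined list for 1364 (29.6%, 28.3 to 30.9) and the Wnt3a list for 351 (7.61%, 6.86 to 8.41). Among regions of all 4 lists the Activin A list led in 64.1% (63.3 to 64.9), the combined list in 31.5% (30.7 to 32.3) and the Wnt3a list in 4.39% (4.04 to 4.75). The order was thus the same in both sets, and it was also the order of list length.

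Of the sets compared, the nearest in score and width were the regions that had a control peak and lacked a Wnt3a peak. Each set had peaks in the Activin A and combined lists and in 1 of the 2 short lists, so the scores in the long lists could be compared between the sets. The 4613 regions had median percentiles of 70.5 (Activin A) and 62.4 (combined), and the 7412 regions missing only from Wnt3a had 72.0 and 63.6. The merged widths were also close, with medians of 1000 and 1050 bp, as were the shares in the highest 25% of the Activin A list (39.8% and 43.2%) and of the combined list (25.4% and 28.5%).

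Of the 12025 regions in the 2 sets, 4613 (38.4%, 37.5 to 39.2) had the Wnt3a and not the control peak. This share stayed between 34.4% and 41.4% over the lowest 9 deciles of the Activin A scores and was 33.3% (29.9 to 36.9) in the highest decile. By combined scores it lay between 35.2% and 41.4% in the lowest 9 deciles and was 31.5% (26.9 to 36.4) in the highest. In every decile of either list the regions with a control peak were the more numerous.

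**Figure D3:**
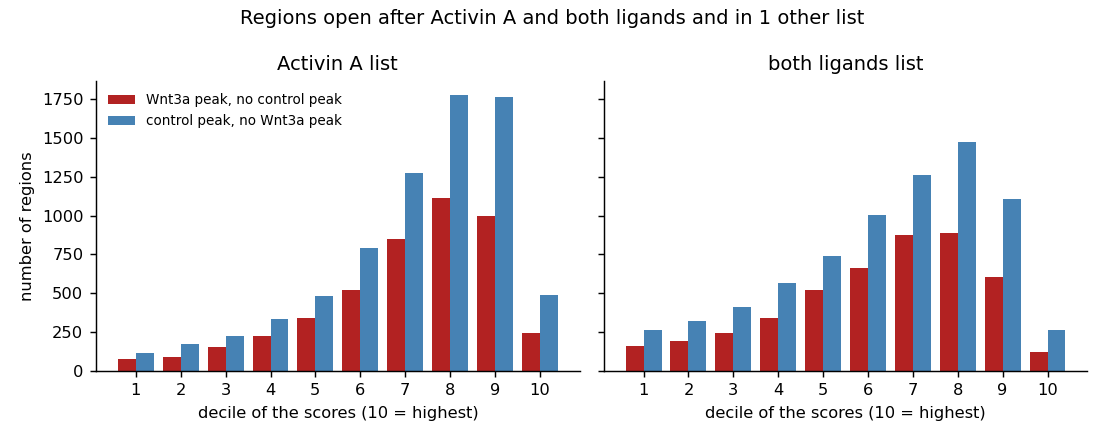
Number of regions (y axis) by decile of the Activin A scores (left) and of the combined scores (right), for regions with a Wnt3a peak and no control peak (first bar of each pair) and regions with a control peak and no Wnt3a peak (second bar). Both sets peak in the eighth decile, at 1116 and 1778 regions by Activin A score, and keep a similar proportion from decile to decile.

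The regions were compact, and in most of them the best peaks of the 3 treated lists shared some bases. The median merged width was 1000 bp (quartiles 832 and 1303, range 426 to 4201), and together the regions covered 5.22 Mb. In 4137 of them (89.7%, 88.8 to 90.5) each treated list had a single peak, and in 4475 (97.0%, 96.5 to 97.5) the best peaks of the 3 lists shared bases, with a median common stretch of 501 bp. In the other 138 regions no base was common to the 3 best peaks. Merging joined peaks that touched or overlapped, so some sharing was built in. In regions of all 4 lists, 80.2% (79.6 to 80.9) had a single peak in each treated list. The best peaks of the treated lists shared bases in 97.5% of them (97.3 to 97.8), with a median common stretch of 663 bp. The centres of the Activin A and combined peaks lay a median of 89.5 bp apart, and those of Activin A and Wnt3a 98 bp. The best peaks had median widths of 820 bp (Activin A), 573 bp (Wnt3a) and 828 bp (combined), against 1206, 705 and 1216 bp in regions of all 4 lists.

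The regions strongest in all 3 treatments were described one by one, taking the 10 whose lowest percentile over the 3 lists was highest. At their head was 180236398 to 180238329 on chromosome 5 (5q35.3), with scores of 789 (Activin A), 228 (Wnt3a) and 582 (combined). It stood above the 94th percentile of every treated list, and the nearest control peak was 49137 bp away. It was also the only region among the 5 highest scores in both the Wnt3a and the combined list. Next came 116172060 to 116173789 on chromosome 9 (9q32), which scored 591, 209 and 483 after Activin A, Wnt3a and both ligands.

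The region at 6392611 to 6394375 on chromosome 19 (19p13.3) scored 532 (Activin A), 226 (Wnt3a) and 378 (combined). At 170625755 to 170627027 on chromosome 3 (3q26.2) the scores were 480, 222 and 387 in the same order. Both stood above the 91st percentile in all 3 lists. The region at 139257099 to 139259252 on chromosome 9 (9q34.3), with 696, 357 and 368, held the highest Wnt3a score of all 4613 regions. Its Wnt3a percentile, 98.6, was above its Activin A percentile, 95.9, and its combined percentile, 91.5.

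The other 5 of the 10 ranked between the 88th and the 98th percentile in every treated list. The region at 35095773 to 35097101 on chromosome 9 (9p13.3) scored 513 (Activin A), 187 (Wnt3a) and 339 (combined). At 241499509 to 241501225 on chromosome 2 (2q37.3) the scores were 616, 182 and 462, and a control peak lay 1667 bp away, the nearest for any of the 10. At 79164461 to 79166580 on chromosome 15 (15q25.1) they were 843, 179 and 563, with the nearest control peak at 59988 bp. The last of the set were 5508032 to 5509528 on chromosome 10 (10p15.1), with 392, 182 and 307, and 74708897 to 74710982 on chromosome 2 (2p13.1), with 874, 172 and 525. Each score in these 10 regions comes from 1 library.

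A high rank after 1 treatment could go with a moderate rank after another. Raw scores are not on 1 scale, as the upper quartile was 215 in the Activin A list, 123 in the Wnt3a list and 177 in the combined list. The top Activin A value of 887 belonged to 33645989 to 33648270 on chromosome 1 (1p35.1), where Wnt3a gave 100 (percentile 62.1) and both ligands 395. Activin A scores of 872 at 249151863 to 249153886 on chromosome 1 (1q44) and of 833 at 73612354 to 73614066 on chromosome 2 (2p13.1) were likewise paired with Wnt3a scores of 116 and 99. The Wnt3a percentiles of these regions were 71.6 and 61.4, and their Activin A percentiles 97.6 and 97.4. The highest combined score, 726 (percentile 98.4), was at 50719951 to 50723304 on chromosome 20 (20q13.2). Activin A gave 537 there (percentile 93.1) and Wnt3a 96 (percentile 59.3). Among the highest Wnt3a scores, 233 was at 13983573 to 13986593 on chromosome 11 (11p15.2), with 468 after Activin A and 242 after both ligands. Only after Wnt3a was this region among the 5 highest.

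The remaining regions with high combined scores were 2239 and 2984 bp wide, against the median of 1000 bp. At 28539682 to 28541920 on chromosome 13 (13q12.2) the combined treatment gave 570, Activin A 375 and Wnt3a 87, and a control peak lay 348 bp away. At 131871535 to 131874518 on chromosome 9 (9q34.11) the scores were 568, 613 and 146 in that order. In the first of these the combined percentile (96.8) was above the Activin A percentile (87.3), and in the second the percentiles were close (96.8 and 94.7).

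Most of the regions lay well apart from control peaks. The median gap to the nearest control peak was 21690 bp (quartiles 6339 and 59147). A control peak lay within 1 kb of 293 regions (6.35%, 5.66 to 7.09), within 10 kb of 1557 (33.8%, 32.4 to 35.1) and within 100 kb of 3909 (84.7%, 83.7 to 85.8). Regions of Activin A and both ligands only had a median gap of 23009 bp, with 31.4% (30.7 to 32.0) within 10 kb, and those of Activin A alone had 25078 bp and 29.8% (29.3 to 30.4). The regions missing only from Wnt3a had a median gap of 24804 bp to the nearest Wnt3a peak and 29.9% (28.8 to 30.9) within 10 kb. Regions of the Wnt3a list alone had 23782 bp to the nearest control peak, with 6.94% (5.30 to 8.90) within 1 kb and 31.5% (28.4 to 34.8) within 10 kb. The share of the 4613 regions within 10 kb became 30.0% when peaks within 500 bases were merged, and the other sets were not recomputed that way, so no order among the sets is read from these values.

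**Figure D4:**
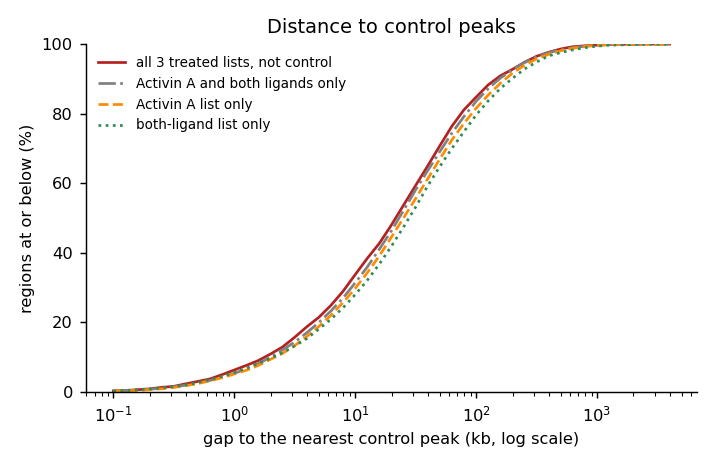
Cumulative share of regions (y axis, %) by the gap to the nearest control peak (x axis, kb, log scale) for regions of all 3 treated lists without a control peak and for regions of Activin A and both ligands only, of Activin A only and of the combined list only. The 4 curves run close together, and 33.8% of the regions on the solid line lie within 10 kb.

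At the edge of the rule, the regions nearest to a control peak were 113443860 to 113444631 on chromosome 4 (4q25), 28338899 to 28340460 on chromosome 21 (21q21.3) and 100630509 to 100632276 on chromosome 13 (13q32.3). Their gaps were 2, 8 and 13 bp, and their Activin A scores were 126, 195 and 478. Just outside it, 97201963 to 97203532 on chromosome 2 (2q11.2) had a control peak that shared 0 bases with the treated peaks and only touched them. At 205743334 to 205744832 on chromosome 1 (1q32.1) the overlap was 9 bases and at 31483236 to 31484808 on chromosome 16 (16p11.2) it was 18. The control scores of these 3 were 53, 68 and 70, and their Activin A scores 341, 144 and 135. Few regions were so close a call: 5 of the 13016 regions of all 4 lists had 100 bases or fewer of control peak under treated peaks, and the median was 835. Inside the rule, 0.347% of the regions had a control peak within 100 bases.

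By chromosome, the X held the highest share of such regions. Of the 251 X regions in all 3 treated lists, 103 (41.0%, 34.9 to 47.4) had no control peak, against 4507 of 17361 (26.0%, 25.3 to 26.6) on the autosomes. Among the autosomes the share ran from 20.4% (18.0 to 22.9) on chromosome 19 to 30.9% (27.5 to 34.5) on chromosome 8. The Y chromosome had 3 of 17 (17.6%, 3.80 to 43.4), too few to place. The X therefore held 2.23% of the 4613 regions and 1.14% of the regions of all 4 lists.

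The 103 X regions ranked close to the 4507 autosomal ones, with median percentiles of 69.0 and 70.5 by Activin A score, 39.2 and 35.7 by Wnt3a score and 63.4 and 62.4 by combined score. Regions of all 4 lists ranked lower on the X than on the autosomes, at 86.0 and 90.4 (Activin A), 53.9 and 65.4 (Wnt3a) and 81.3 and 87.5 (combined). Within score classes the X share was still the higher one. In the upper 50% of the Wnt3a list it was 26.5% on the X (18.7 to 35.7) and 13.7% on the autosomes (13.1 to 14.4), and in the lower 50% 52.9% (44.2 to 61.4) and 42.1% (41.0 to 43.2). In the upper 50% of the Activin A list it was 36.6% (30.4 to 43.2) and 22.5% (21.9 to 23.2). Set against regions missing only from Wnt3a, 103 of 189 X regions (54.5%, 47.1 to 61.7) had the Wnt3a and not the control peak, and 38.1% (37.2 to 39.0) did on the autosomes. Cut to lists of equal length, the X share was 28.2% (20.9 to 36.3) and that over all chromosomes 17.0% (16.3 to 17.6). With 1 control library, a lower yield of X peaks in that library and a gain in treated cells cannot be told apart.

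**Figure D5:**
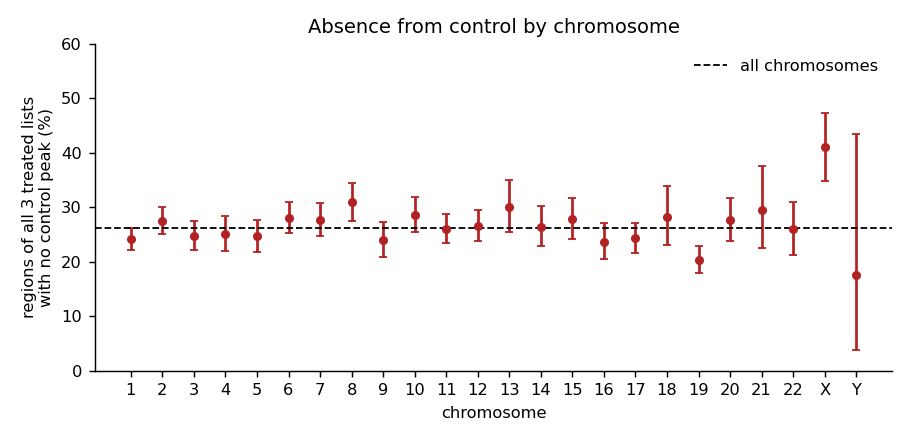
Share of regions of all 3 treated lists that had no control peak (y axis, %) by chromosome (x axis), with exact 95% intervals; the dashed line is the share over all chromosomes, 26.2%. The X stands at 41.0% and chromosome 19 is the lowest autosome at 20.4%.

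On the X most of the regions lay at CpG islands, stretches rich in CpG that mark many gene starts. Islands were used for this chromosome only, 896 in number. Of the 103 X regions, 66 (64.1%, 54.0 to 73.3) overlapped an island. Regions of all 4 lists did so in 106 of 148 cases (71.6%, 63.6 to 78.7) and regions missing only from Wnt3a in 50 of 86 (58.1%, 47.0 to 68.7). Lower shares were found for regions of Activin A and both ligands only, 169 of 407 (41.5%, 36.7 to 46.5), and of Activin A only, 107 of 489 (21.9%, 18.3 to 25.8).

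The sets were also compared within 1 range of scores. Between the 50th and 75th percentile of the Activin A list, 21 of 44 of the X regions (47.7%, 32.5 to 63.3) overlapped an island, against 74 of 167 regions of Activin A and both ligands only (44.3%, 36.6 to 52.2) and 20 of 74 regions of Activin A only (27.0%, 17.4 to 38.6). In that range regions of all 4 lists stood at 57.7% (36.9 to 76.6) and regions missing only from Wnt3a at 55.9% (37.9 to 72.8), and the intervals of all these sets overlapped that of the 44 regions. The 66 regions at islands had a median Activin A percentile of 75.1 and a median width of 1125 bp, and the 37 others 61.2 and 926 bp. The Wnt3a percentiles hardly differed, at 39.6 and 38.5.

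The regions were spread along the chromosomes and rarely crowded. The median gap between neighbours was 286.0 kb, and no 100 kb stretch held more than 5 of them. In 335 bands with at least 20 regions of all 3 treated lists, the median share without a control peak was 25.0%. The highest share was in 10q23.1 (11 of 21, 52.4%, 29.8 to 74.3), followed by 2p24.1 (15 of 30), 11q24.3 (11 of 22) and 17q24.2 (14 of 28), each at 50.0%. The lowest were 12q13.3 (1 of 31, 3.23%, 0.0816 to 16.7), 15q21.1 (2 of 26, 7.69%, 0.946 to 25.1) and 19p13.12 (3 of 37, 8.11%, 1.70 to 21.9). Of the 335 intervals, 12 lay wholly above 26.2% and 17 wholly below it.

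Bands that stain darkest with Giemsa, which are poor in genes, had a share of 32.0% (29.3 to 34.7), or 387 of 1211 regions, against 25.8% (24.9 to 26.6) in unstained bands. Bands of intermediate stain, from light to dark, had 23.8% (22.0 to 25.6), 26.5% (24.7 to 28.4) and 27.8% (25.6 to 30.1). The median Wnt3a percentile of the regions counted was 57.3 in the darkest bands and 56.4 in unstained bands. Activin A and combined percentiles were not compared between stains, and the X was not set aside.

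Groups of 5 regions within 100 kb occurred at 6 places, in 1p36.33, 7q31.32, 11p15.5, 11q12.2, 19q13.42 and 20q13.33. The 7q31.32 group was the tightest, at 121939655 to 121957660 on chromosome 7, a span of 18.0 kb, and the other 5 spanned 62.8 to 87.3 kb. It was also the only one with no region of all 4 lists between its ends, where 1 region with a control peak was found; the others held 2 to 5 regions of all 4 lists.

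Within 7q31.32, the first region scored 294 with Activin A, 61 with Wnt3a and 200 with both ligands. The second scored 192, 71 and 230, and the third, with the highest Wnt3a score of the group, 272, 115 and 330. The combined percentiles of the second and the third, 81.9 and 89.6, stood above their Activin A percentiles, 71.7 and 80.9. The fourth and the fifth, separated by 87 bp, scored 129, 72 and 150, and 122, 100 and 80. A control peak lay 1.01 kb from the second region.

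In the 1p36.33 group, from 935222 to 1005275 on chromosome 1, Activin A scores ran from 205 to 419 and combined scores from 85 to 149, while 4 of the 5 Wnt3a scores were between 59 and 64 and the remaining one was 124. Activin A percentiles there were 73.6 to 89.3. The 11p15.5 group, from 789123 to 851952 on chromosome 11, held 5 regions of all 4 lists as well, and its Activin A scores ran from 124 to 625. Percentiles in that group were 55.8 to 94.9 by Activin A score, 13.2 to 75.2 by Wnt3a score and 27.6 to 92.5 by combined score, so the 5 regions were unlike in strength.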

How the data were processed

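The 4 ATAC-seq libraries came as 1 deposited peak list each, with columns for position, a peak name of the MACS type and the authors' score. The submitters' processing notes name CASAVA 1.8, Bowtie2 2.2.2 and hg19. Caller settings, duplicate handling, read shifting and depth were not given in these sources. Each of these changes how many weak peaks pass.

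Groups came from the labels. Peaks were merged where they overlapped or were book-ended. With 1 library per group no test was made. Shares carry Clopper-Pearson 95% intervals. Named regions were the 10 with the highest minimum percentile, the 5 with the highest score in each treated list, the extreme bands, the densest groups and the regions at the edge of the rule; ties were all named. The regions and these lists were chosen with earlier results of these data known. Bands came from circlize 0.4.16 and CpG islands of the X from pyranges 0.1.4. The build of the islands is not stated there: 71.6% of X regions of all 4 lists overlapped an island as given and at most 6.76% after shifts of 5000 to 50000 bases. Chromosome lengths came from GenomeInfoDb 1.38.1. Python 3.11.15, numpy 2.4.6, pandas 2.3.3, scipy 1.17.1 and matplotlib 3.10.9 were used. In a test on simulated data, 200 of 200 regions planted in all 3 treated lists and away from control peaks were found. Their peaks overlapped by construction, so this checks the merging only. Analyses that need hg19 genes or sequence were not run.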

Additional observations from a re-analysis of the deposited data

How the results depend on the processing

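Of 55 alternative values, 38 stayed within 1.5 times a count or within the interval of a share and 17 did not. The number of regions, 4613, became 2437 with the highest 50% of each list, 1051 with the highest 50% of the treated lists against the full control list, 2091 at equal list length (21078 peaks each) and 23907 without the Wnt3a list. The share of regions of all 3 treated lists lacking a control peak, 26.2%, became 11.1% with the highest 50% of the treated lists against the full control list, 17.0% at equal list length, 36.3% when peaks had to overlap by 50% of each and 53.9% without the Wnt3a list. It was 25.3% when merging within 500 bases, 27.05% with 500 bases around each centre, 24.5% when absence meant no control peak within 1 kb, 27.7% without the Activin A list and 29.7% without the combined list. The X share, 41.0%, became 21.8% with the highest 50% of the treated lists against the full control list, 28.2% at equal length and 68.6% without the Wnt3a list. The share within 10 kb of a control peak became 30.0% when merging within 500 bases. Fewer peaks entered by construction where lists were cut, and fewer lists had to hold a region where one was left out; for the others the cause was not tested. Leaving out a list and all alternatives for the X were chosen after seeing the data. Shares among the highest 25% of scores stayed when merging within 500 bases, with 500 bases around each centre and with no control peak within 1 kb. They also stayed on autosomes only and without centromeric, heterochromatic and stalk bands. They were not recomputed with cut lists, with book-ended peaks kept apart, with overlap by 50% of each peak or with a list left out. Depth is unknown, which limits what can be said of weak peaks. The alternative on gene starts was not run, and the band, island and distance comparisons between sets were not recomputed. No paired analysis was possible because there was a single library for every group.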
